A study of Mus musculus with 12 samples.

Results

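The 50 genes described here encode the machinery with which a cell copies its DNA and divides, together with the cyclins, kinases and inhibitors that time these steps. They were chosen by symbol for their known role in the cell cycle, with earlier results of these data known, and grouped by role. The groups are 10 genes of origin licensing and the replicative helicase, 5 of the replication fork, 4 of nucleotide supply, 6 of G1/S control, 4 G1 cyclins and kinases, 10 mitotic cyclins, kinases and regulators of the anaphase-promoting complex (APC/C), 8 of the spindle, chromosome and kinetochore, and 3 inhibitors of cyclin-dependent kinases. All 50 were among the 24561 genes of the count table, and all 50 were among the 12719 genes with enough counts to be tested.

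Expression was measured in CXCR5hiPD-1hi OT-II T cells, follicular helper (Tfh) cells that carry a transgenic receptor for ovalbumin and were purified from the lymph nodes on day 3 of the response to NP-OVA, given with LPS in alum. One group came from CD4-Cre mice (wild-type, labelled WT) and the other from CD4-CrexBcl6fl/+ mice (BCL6-insufficient, labelled HET), in which Cre, driven by *Cd4* regulatory sequence and therefore active in T cells, can delete a single *Bcl6* allele. All mice were C57BL/6, both groups carried CD4-Cre and the OT-II receptor, and both were transferred into CD45.1 SAP-deficient recipients, which keep their own lymphocytes. Each group held 3 recipient mice with 2 technical repeats of about 200 cells each, 12 libraries in all, and the repeats of a mouse were summed, so that n = 3 mice per group throughout. The sources used here do not give the mice's age or the number of donors behind the 3 recipients of a group, so genotype and donor cannot be told apart, and if a donor was shared the p-values measure only the spread between recipients.

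A dividing cell loads the MCM helicase onto its replication origins in G1, a step called licensing. E2F transcription factors then switch on the genes of DNA synthesis, and in S phase polymerases, the sliding clamp and the enzymes that join the new fragments copy the genome. Genes of mitosis peak later, in G2 and M phase, when cyclin B with CDK1 drives chromosome condensation, the kinetochores attach chromosomes to the spindle, and the APC/C marks cyclins for destruction. T cells divide rapidly in the first days after they meet antigen, and early Tfh cells are part of that burst.

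Libraries held 3343375 to 8315722 counts, and the 6 mice 10098419 to 14002507. *Bcl6* was higher in the libraries labelled HET (150.0, 146 and 150.0 CPM, normalized counts scaled to library size, in mice 1 to 3) than in those labelled WT (54.8, 75.6 and 56.9), so groups are named by their labels and every direction below rests on them. T cell markers were abundant in every mouse, with 521 to 555 CPM for *Cd3d*. *Cd8a* was listed at 0 in every mouse but one, whereas *Cd8b1* held 21.1 to 31.9 CPM in HET mice and 26.4 to 39.6 in WT mice. Of 11 T cell and Tfh markers, 5 fell with the HET label (*Cd4*, *Lck*, *Cxcr5*, *Pdcd1* and *Tcf7*) and 1 rose (*Icos*), and their sum was 4650 to 5050 CPM against 5180 to 5500 in WT mice. Summed B cell markers were 11.7 to 41.1 CPM against 8.09 to 33.4, with 0 of 3 tested genes called by edgeR. They were highest in HET mouse 2 (41.1) and WT mouse 3 (33.4), against 8.09 to 15.2 CPM in the other mice. Summed myeloid markers were 15.4 to 36.7 against 7.60 to 10.6, with 1 of 3 called (*Lyz2*, higher). CD8 T and NK cell markers summed to 24.3 to 32.9 against 26.8 to 40.4 CPM and stromal and red cell markers to 56.6 to 74.6 against 73.7 to 87.8. None of their 3 tested genes was called. The former sum came almost wholly from *Cd8b1* and the latter from *Pecam1* (56.5 to 74.15 CPM in HET mice and 73.2 to 87.3 in WT mice). The part of these markers in the differences below was not tested. Among the WT libraries, mouse 2 repeat 1 stood apart with 20.9% of its counts on a single ribosomal RNA gene (12.7% to 15.7% in the other WT libraries), and mouse 3 repeat 2 with 16249 genes detected (15444 to 15647 in the others). The latter was also the deepest WT library (7266106 counts). The count of members called, in all and by phase, is given with and without these 2 libraries. Among the HET libraries, mouse 3 repeat 1 had the fewest genes (14946, against 15330 to 16157). It also had the lowest share of that ribosomal RNA gene (12%, against 14.8% to 17.1%), and was left out only with its mouse or with all first repeats.

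Together the 50 genes took 1.28% to 1.36% of the counts of a mouse, and the groups overlapped. Against wild-type, the BCL6-insufficient label went with lower transcripts of 4 of the 6 subunits of the MCM helicase ring and with higher transcripts of a subset of mitotic genes. By the quasi-likelihood F test of edgeR, with p-values adjusted by Benjamini and Hochberg's method over all tested genes, 16 of the 50 (32%) had an adjusted p under 0.05, where 18% of all tested genes did. Of the 50, 10 fell (20%, against 8.82% of all genes), namely *Mcm4*, *Mcm5*, *Mcm6*, *Mcm7*, *Fen1*, *Rrm1*, *Cdk2*, *Bub1*, *Cdkn1b* and *Cdkn2c*, and 6 rose (12%, against 9.17%), namely *Pole*, *Ube2c*, *Top2a*, *Mki67*, *Cenpe* and *Cenpf*. The 3 mice of one label all lay above the 3 of the other for 24 of the 50 (48%), against 34.4% of all genes. The median log2 fold change of the 50 was -0.07 and that of all tested genes 0.01. Without the 2 WT libraries named above, 13 of the 50 were called, 5 higher and 8 lower, all of them among the 16, beside 9.85% of all genes.

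**Figure D1:**
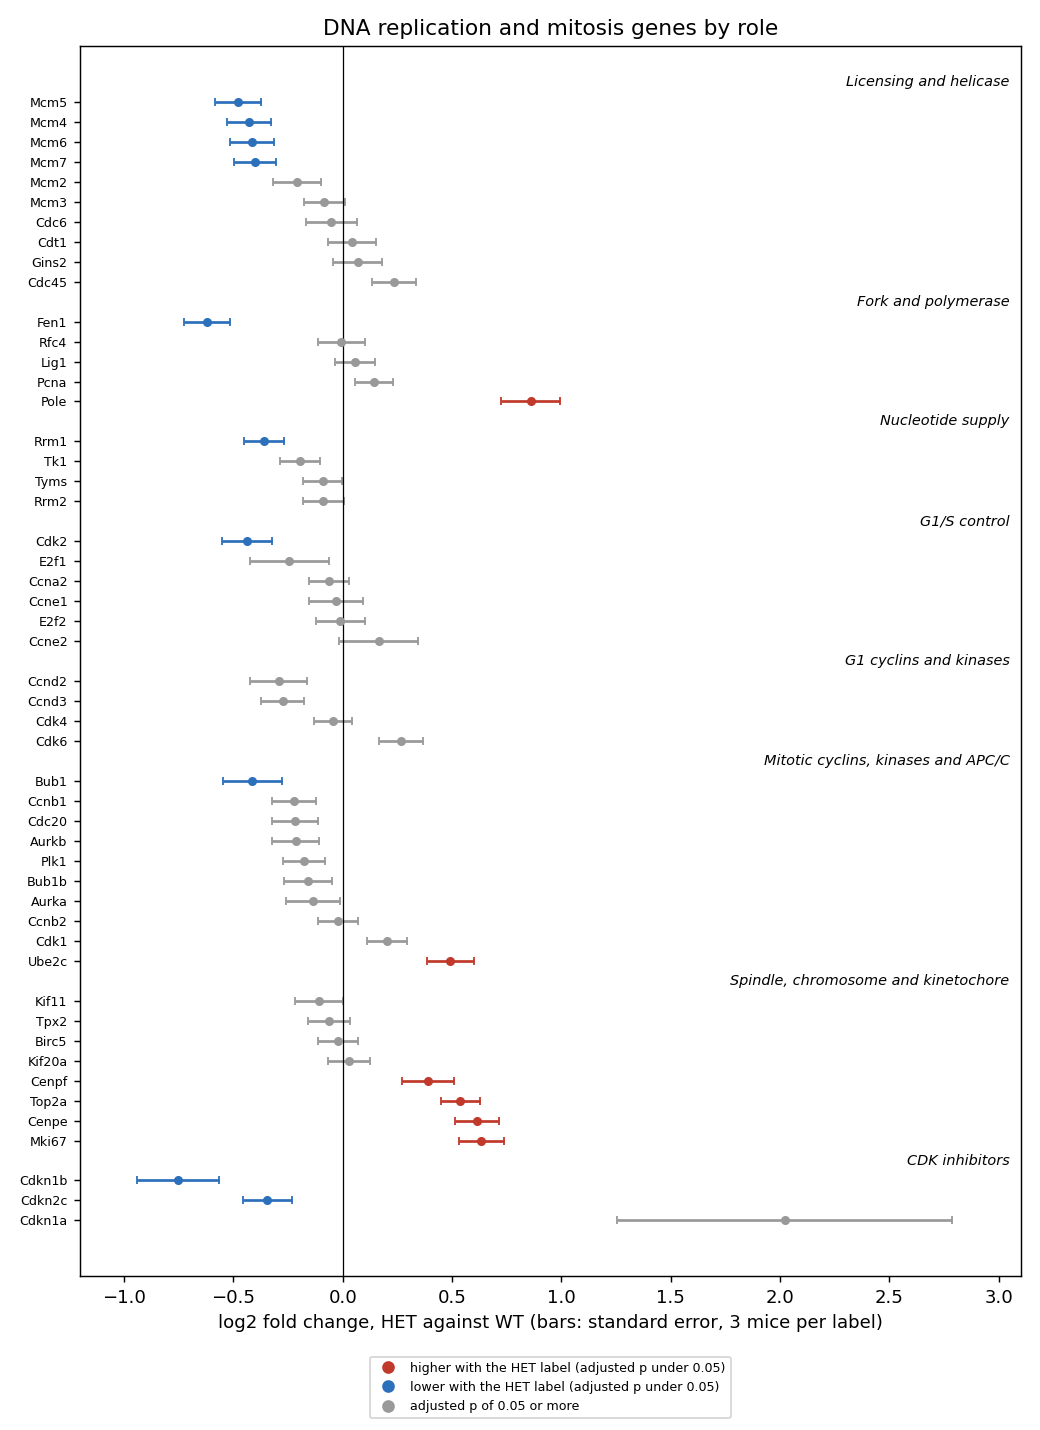
Log2 fold change of each of the 50 genes between the HET and WT labels (horizontal axis), by role, with bars of 1 standard error from edgeR and n = 3 mice per label. Red points rose and blue points fell at an adjusted p under 0.05. The blue points gather in the licensing group (4 of 10) and the red points in the spindle, chromosome and kinetochore group (4 of 8), while *Cdkn1a*, far to the right, rests on very few counts and is grey.

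The genes were also split by the phase in which they are known to peak. Of the 19 genes of S phase, 6 fell and 1 rose (31.6% and 5.26%), and of the 18 genes of G2/M, 1 fell and 5 rose (5.56% and 27.8%). Without the 2 WT libraries, 6 fell and 1 rose in S phase, and 0 fell and 4 rose in G2/M, where *Bub1* and *Cenpf* lost their calls by edgeR, as did the inhibitor *Cdkn2c*. Most members of both sets did not pass the test, 12 of 19 and 12 of 18, and the median log2 fold change was -0.09 for S phase and -0.04 for G2/M, so that the rise of the 5 G2/M genes was not that of the whole set.

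The promoters of these genes are a textbook case of cell-cycle control: E2F sites dominate in genes of S phase, and a cell cycle homology region (CHR) with CCAAT boxes in genes of mitosis. RefSeq windows on GRCm38.p6, from 250 bases before to 50 after a gene's start, were matched for 41 of the 50 genes. Searched on both strands were the letters TTCCCGC, the letters TTGGCGC, the letters TTGCCGC and the letters TTCGCGC for E2F, the letters TTTGAA or else the letters TTTAAA for the CHR, and also the CCAAT box by its name, of which the E2F and CCAAT letters can overlap. The E2F letters were present in 9 of the 16 S-phase windows (56.2%), in 3 of the 15 G2/M windows (20%) and in 9.57% of all 32851 windows. The CHR letters were in 6 of 16 (37.5%), in 14 of 15 (93.3%) and in 27.6% of all windows, and CCAAT in 9 of 16 (56.2%), in 14 of 15 (93.3%) and in 37.4%. Shown are the windows of 3 helicase genes that fell and 3 mitotic genes that rose, 5′ to 3′ on the strand of the gene, with the matched letters in capitals.
Mcm5 (chr8:75109259-75109558, plus strand): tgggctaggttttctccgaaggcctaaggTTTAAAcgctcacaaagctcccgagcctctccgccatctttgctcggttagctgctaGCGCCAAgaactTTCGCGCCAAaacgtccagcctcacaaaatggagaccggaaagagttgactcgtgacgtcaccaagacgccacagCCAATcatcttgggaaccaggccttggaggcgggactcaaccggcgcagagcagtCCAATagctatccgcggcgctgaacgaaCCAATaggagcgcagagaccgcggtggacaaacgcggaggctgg
Mcm6 (chr1:128359656-128359955, minus strand): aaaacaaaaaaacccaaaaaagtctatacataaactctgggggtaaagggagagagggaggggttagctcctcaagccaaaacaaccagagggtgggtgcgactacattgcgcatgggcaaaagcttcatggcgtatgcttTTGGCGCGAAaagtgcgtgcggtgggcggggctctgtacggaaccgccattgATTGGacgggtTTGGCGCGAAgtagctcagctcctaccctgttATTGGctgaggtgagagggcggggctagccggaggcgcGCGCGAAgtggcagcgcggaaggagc
Mcm7 (chr5:138171834-138172133, minus strand): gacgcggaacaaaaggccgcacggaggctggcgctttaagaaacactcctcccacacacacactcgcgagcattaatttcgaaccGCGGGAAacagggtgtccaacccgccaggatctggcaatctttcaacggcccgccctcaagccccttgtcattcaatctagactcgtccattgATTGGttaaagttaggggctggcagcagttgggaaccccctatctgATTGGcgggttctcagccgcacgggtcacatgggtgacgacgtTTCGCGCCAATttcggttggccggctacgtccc
Top2a (chr11:99024140-99024439, minus strand): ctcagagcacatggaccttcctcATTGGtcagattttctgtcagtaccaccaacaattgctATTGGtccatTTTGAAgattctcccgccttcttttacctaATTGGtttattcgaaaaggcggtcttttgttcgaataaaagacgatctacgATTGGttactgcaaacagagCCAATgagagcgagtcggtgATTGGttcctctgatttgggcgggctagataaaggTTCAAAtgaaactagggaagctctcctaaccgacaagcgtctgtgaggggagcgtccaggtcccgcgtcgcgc
Mki67 (chr7:135716330-135716629, minus strand): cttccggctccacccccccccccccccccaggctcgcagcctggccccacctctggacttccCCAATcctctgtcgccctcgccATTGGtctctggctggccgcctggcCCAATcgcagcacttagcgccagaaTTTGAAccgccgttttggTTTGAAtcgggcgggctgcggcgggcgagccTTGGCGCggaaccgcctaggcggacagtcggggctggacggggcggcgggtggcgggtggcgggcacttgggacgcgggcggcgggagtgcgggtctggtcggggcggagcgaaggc
Cenpe (chr3:135212313-135212612, plus strand): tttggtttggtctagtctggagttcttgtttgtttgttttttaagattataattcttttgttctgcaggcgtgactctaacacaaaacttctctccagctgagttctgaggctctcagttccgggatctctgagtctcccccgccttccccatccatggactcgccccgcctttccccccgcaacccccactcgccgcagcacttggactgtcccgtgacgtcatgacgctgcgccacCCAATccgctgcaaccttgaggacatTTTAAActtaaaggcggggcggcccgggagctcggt
Of the 3 helicase windows, *Mcm6* held 5 matches to the E2F letters and *Mcm5* and *Mcm7* 3 each, with 1 CHR match among them, in *Mcm5*. *Top2a* held 6 CCAAT matches and 2 CHR matches with no E2F letters, *Mki67* 3, 2 and 1, and *Cenpe* 1, 1 and 0. By call, the E2F letters were in 6 of the 9 windows of genes that fell and in 1 of the 5 windows of genes that rose. The CHR letters were in 3 of 9 and in 5 of 5. *Pole* and *Mcm4* had no matched window, and all 5 windows of genes that rose belong to G2/M genes, so that call and phase cannot be told apart there. These matches describe the letters of the windows and are not measured sites of binding.

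The MCM2 to MCM7 subunits form the ring-shaped helicase that opens DNA at the fork, and 4 of the 6 fell with the HET label. *Mcm5* (chromosome 8, 75109569 to 75128439 on GRCm38) stood at 284, 314 and 312 CPM in HET mice 1 to 3 and at 408, 364 and 495 CPM in WT mice 1 to 3, a log2 fold change of -0.48 (SE 0.10, edgeR adjusted p = 0.00258). Every HET mouse lay below every WT mouse, and WT mouse 3 was the highest. *Mcm4* (chromosome 16, 15623897 to 15637400) held 181, 189 and 210.3 CPM against 232, 265 and 284 CPM (log2 fold change -0.43, SE 0.10, edgeR adjusted p = 0.00483). *Mcm6* (chromosome 1, 128331590 to 128359664) held 343.5, 377 and 357 CPM against 415, 471 and 549.8 CPM (log2 fold change -0.41, SE 0.10, edgeR adjusted p = 0.00572). *Mcm7* (chromosome 5, 138164583 to 138172422) held 284.5, 326 and 341 CPM against 384, 413 and 458 CPM (log2 fold change -0.40, SE 0.10, edgeR adjusted p = 0.00590). The HET and WT mice did not overlap for any of these 4 genes, and the *Mcm7* gene also contains the microRNAs Mir25 and Mir93.

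The remaining 2 subunits did not pass the test. *Mcm2* held 246, 262 and 267 CPM in HET mice and 264, 272 and 359 CPM in WT mice (log2 fold change -0.21, SE 0.11, edgeR adjusted p = 0.196), and WT mouse 1 lay among the HET mice, with only WT mouse 3 far above them. Without WT mouse 3 its log2 fold change was -0.06 (edgeR adjusted p = 0.787). *Mcm3* differed by -0.08 (SE 0.10, edgeR adjusted p = 0.60). Summed over MCM2 to MCM7, the HET mice held 1736, 1847 and 1882 CPM and the WT mice 2075, 2187 and 2612 CPM. All 3 HET mice lay below all 3 WT mice, and WT mouse 3 was again the highest. Leaving out WT mouse 3 ended the call of *Mcm6* (log2 fold change -0.31, edgeR adjusted p = 0.0552) and kept those of *Mcm4*, *Mcm5* and *Mcm7*. With technical repeat 1 of each mouse alone the log2 fold changes were -0.26 for *Mcm5*, -0.30 for *Mcm6*, -0.40 for *Mcm4* and -0.36 for *Mcm7*, with edgeR adjusted p of 0.279, 0.211, 0.0845 and 0.0845. With log2(TPM + 1), *Mcm5* and *Mcm6* stood at -0.55 and -0.49 (limma adjusted p of 0.0577 and 0.0546). In these bulk libraries, fewer cells in a phase and less transcript per cell cannot be told apart.

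The loaders and partners of the helicase gave no call. *Cdc6* and *Cdt1*, which place the MCM ring on DNA, differed by -0.05 and 0.04 on the log2 scale, and *Gins2*, a subunit that joins the ring when it fires, by 0.07 (edgeR adjusted p of 0.809, 0.831 and 0.727). *Cdc45*, which completes the active helicase, held 122 to 128 CPM in HET mice and 101 to 109 in WT mice, a difference of 0.23 (SE 0.10, edgeR adjusted p = 0.115) with no overlap of the mice. Its difference from wild-type was thus opposite in sign to that of the ring genes, without passing the test.

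At the fork, 1 gene fell and 1 rose. *Fen1* (chromosome 19, 10199132 to 10204169), the flap endonuclease that trims Okazaki fragments on the lagging strand, held 130.2, 169.9 and 149 CPM in HET mice and 231, 222 and 237 CPM in WT mice. Its highest HET mouse lay well below the lowest WT mouse, and the log2 fold change was -0.62 (SE 0.10, edgeR adjusted p = 0.000268), 1.54-fold higher in WT. *Pole* (chromosome 5, 110286306 to 110337474), the catalytic subunit of the leading-strand polymerase epsilon, went the other way with 76.1, 78.7 and 79.8 CPM in HET mice and 45.5, 49.3 and 34.5 CPM in WT mice. The HET mice lay close together and far above the WT mice, with a log2 fold change of 0.86 (SE 0.14, edgeR adjusted p = 0.000138), or 1.81-fold. Both were called in all 20 alternatives tried. The exons of *Fen1* lie over those of the antisense gene Gm10143 for 1909 bases, and reads of such a pair cannot be told apart if strand was not used in counting.

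The other 3 fork genes did not differ beyond the test. *Pcna*, the sliding clamp that holds polymerases on DNA, held 640.2, 603 and 645.5 CPM in HET mice and 539, 595 and 577 CPM in WT mice (log2 fold change 0.14, SE 0.09, edgeR adjusted p = 0.274). The lowest HET mouse was only just above the highest WT mouse. *Lig1*, the ligase that seals the lagging strand, and *Rfc4*, a subunit of the clamp loader, differed by 0.06 and -0.01 on the log2 scale. Per kilobase of exon, *Pcna* was among the most abundant of the 50 genes (262 CPM per kb in HET and 238 in WT mice), next to *Ccnb2* (269 and 272), *Ube2c* (258 and 184) and *Rrm2* (247 and 262).

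Among the genes that supply deoxynucleotides, *Rrm1*, the large subunit of ribonucleotide reductase (chromosome 7, 102441695 to 102469771), fell. It held 315, 331 and 302.5 CPM in HET mice and 407, 375.5 and 433 CPM in WT mice, with no overlap (log2 fold change -0.36, SE 0.09, edgeR adjusted p = 0.00847). Its partner *Rrm2*, the subunit whose level follows S phase, was at 659 to 712.5 CPM in HET mice and at 644 to 808 CPM in WT mice (log2 fold change -0.09, SE 0.09, edgeR adjusted p = 0.567), and the groups overlapped. *Tyms* and *Tk1*, which make and salvage thymidine nucleotides, differed by -0.09 and -0.19 (edgeR adjusted p of 0.538 and 0.153). For *Tk1* the HET mice lay below the WT mice without overlap (288 to 330 against 337 to 358 CPM). The call of *Rrm1* was lost with technical repeat 1 alone (log2 fold change -0.28, edgeR adjusted p = 0.197).

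Of the 6 genes of G1/S control, only *Cdk2* was called. *Cdk2* (chromosome 10, 128697939 to 128705031), the kinase that pairs with cyclins E and A to start and sustain DNA synthesis, held 90.6, 95.05 and 83.3 CPM in HET mice and 109, 115 and 140.0 CPM in WT mice. The groups did not overlap, and the log2 fold change was -0.44 (SE 0.11, edgeR adjusted p = 0.00993), or -0.33 without WT mouse 3 (edgeR adjusted p = 0.0837). The cyclin partners differed little, by -0.03 for *Ccne1*, 0.16 for *Ccne2* and -0.06 for *Ccna2*, with edgeR adjusted p of 0.899, 0.587 and 0.705. The transcription factors *E2f1* and *E2f2*, activators of the S-phase genes, differed by -0.24 (SE 0.18, edgeR adjusted p = 0.395) and -0.01 (SE 0.11, edgeR adjusted p = 0.961).

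The G1 cyclins and kinases, which carry growth signals to the cell cycle, gave no call. Cyclin D3 (*Ccnd3*), a D-type cyclin abundant in lymphocytes, held 242, 217.5 and 278 CPM in HET mice and 299.9, 295 and 296 CPM in WT mice (log2 fold change -0.27, SE 0.10, edgeR adjusted p = 0.0580). The HET mice all lay below the tightly grouped WT mice, and the gene passed the test in 6 of the 20 alternatives, including without HET mouse 3 (log2 fold change -0.37, edgeR adjusted p = 0.0123). Cyclin D2 (*Ccnd2*) held 117, 91.8 and 126 CPM against 159, 141 and 111 CPM, and the groups overlapped (log2 fold change -0.29, SE 0.13, edgeR adjusted p = 0.127). With 1 mouse left out it ranged from -0.43 (without WT mouse 3, edgeR adjusted p = 0.0353) to -0.17 (without HET mouse 2, edgeR adjusted p = 0.466), and without WT mouse 1 it was -0.18 (edgeR adjusted p = 0.448).

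Their kinase partners differed in sign. *Cdk4* held 349, 364 and 371 CPM in HET mice and 375, 358 and 384 CPM in WT mice, overlapping groups with a log2 fold change of -0.04 (SE 0.09, edgeR adjusted p = 0.786). *Cdk6* held 209.9, 211 and 256 CPM against 179.6, 189 and 193 CPM (log2 fold change 0.27, SE 0.10, edgeR adjusted p = 0.0700). The HET mice were above the WT mice without overlap, but with the technical repeats taken alone the log2 fold change of *Cdk6* was 0.60 (repeat 1, edgeR adjusted p = 0.00858) and -0.00 (repeat 2, edgeR adjusted p = 0.994), and HET mouse 3 repeat 1 stood highest with 327 CPM.

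**Figure D2:**
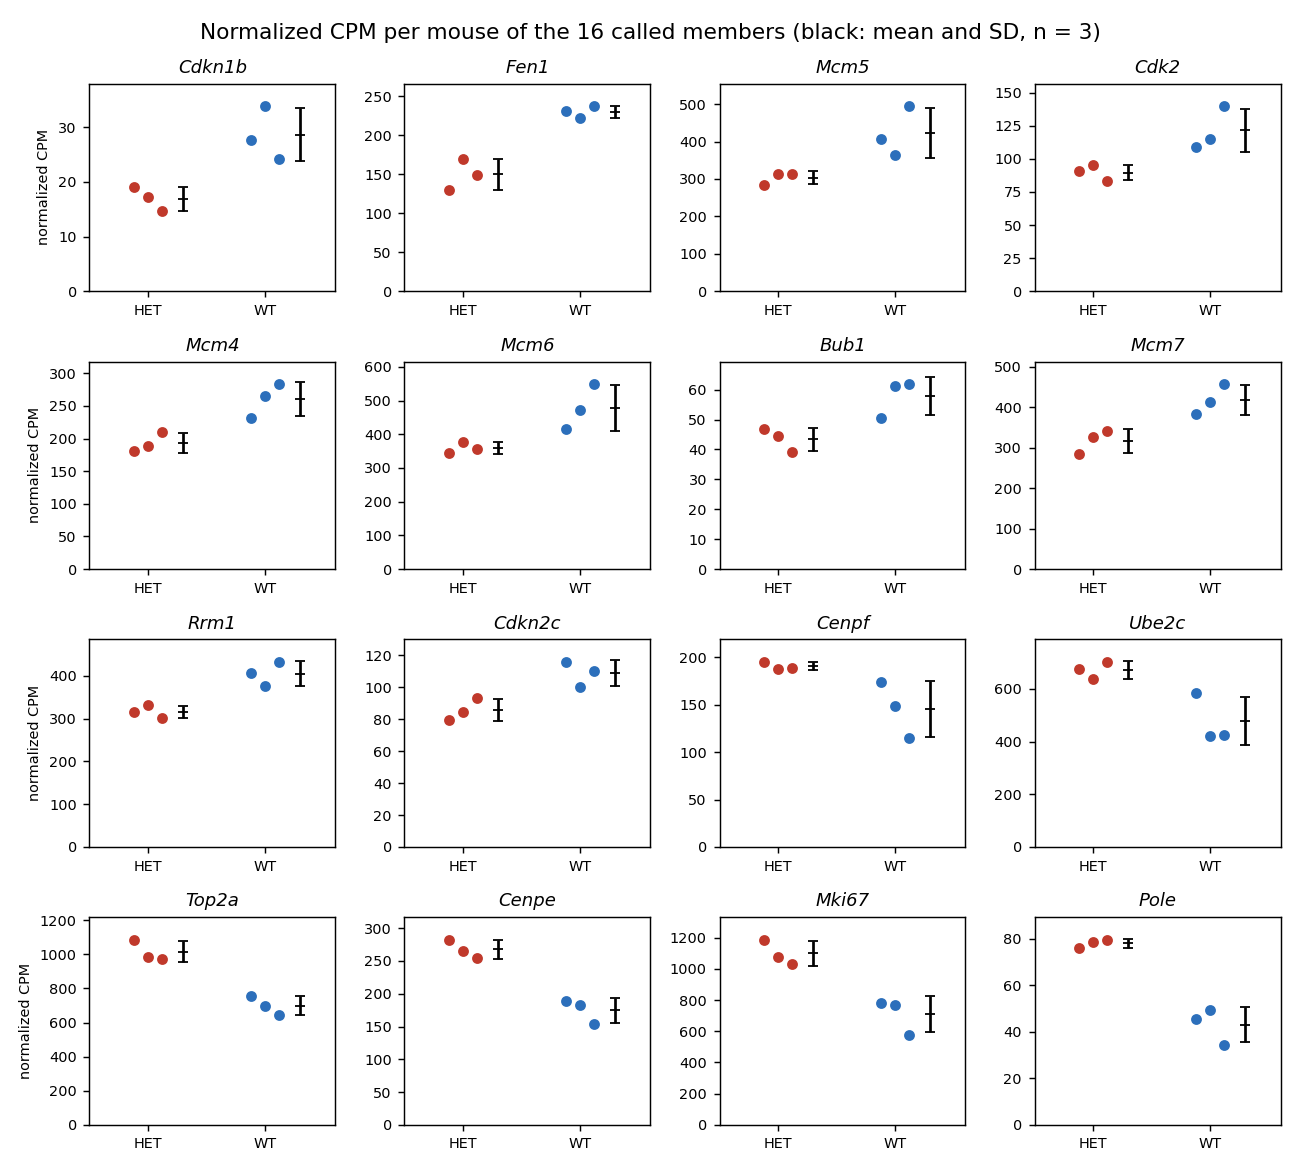
Normalized CPM per mouse (vertical axes, from 0) of the 16 genes with an edgeR adjusted p under 0.05, ordered by log2 fold change, for the HET (red) and WT (blue) labels, with the mean and SD of 3 mice in black. In all 16 panels the 3 points of one label lie on one side of the 3 points of the other, widely for *Pole* and *Fen1* and narrowly for *Bub1*, *Cdkn2c* and *Cenpf*.

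Of the mitotic engine, neither the B-type cyclins nor their kinase were called. Cyclin B1 (*Ccnb1*), the activator of CDK1, held 213, 257 and 234 CPM in HET mice and 302, 249 and 269.7 CPM in WT mice, with overlap (log2 fold change -0.22, SE 0.10, edgeR adjusted p = 0.138). The kinase *Cdk1* held 297, 291 and 321 CPM against 271, 269 and 249 CPM, without overlap and in the other direction (log2 fold change 0.20, SE 0.09, edgeR adjusted p = 0.132). With technical repeat 1 alone the log2 fold changes were 0.02 for *Cdk1* and -0.10 for *Ccnb1* (edgeR adjusted p of 0.95 and 0.744), and with repeat 2 alone 0.33 and -0.34 (edgeR adjusted p of 0.0638 and 0.0519). Cyclin B2 (*Ccnb2*) differed by -0.02 (SE 0.09, edgeR adjusted p = 0.914). The entry kinase *Plk1*, the Aurora kinases *Aurka* and *Aurkb*, the checkpoint kinase *Bub1b* and the APC/C activator *Cdc20* differed by -0.22 to -0.14, none with an adjusted p under 0.05. The HET mice lay below the WT mice without overlap, though narrowly, for *Plk1* (211 to 234 against 237 to 274 CPM) and *Cdc20* (224 to 301 against 304 to 329 CPM).

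Of that group, 1 gene rose and 1 fell. *Ube2c* (chromosome 2, 164769898 to 164778822), the ubiquitin-conjugating enzyme that works with the APC/C, held 673, 636 and 703 CPM in HET mice and 582, 423 and 426 CPM in WT mice. The groups did not overlap, although WT mouse 1 came close to the HET mice, and the log2 fold change was 0.49 (SE 0.11, edgeR adjusted p = 0.00254). With technical repeat 1 alone it was 0.27 (edgeR adjusted p = 0.212), and with log2(TPM + 1) and log2(TPM + 0.1) it was 0.35 in both (limma adjusted p of 0.155 and 0.157). *Bub1* (chromosome 2, 127801122 to 127831865), a kinase of the spindle checkpoint, held 46.7, 44.4 and 39.2 CPM in HET mice and 50.55, 61.15 and 61.95 CPM in WT mice, a log2 fold change of -0.41 (SE 0.13, edgeR adjusted p = 0.0357). The gap between the groups was small, and *Bub1* lost its call without HET mouse 2, HET mouse 3, WT mouse 2 or WT mouse 3 (log2 fold changes -0.43 to -0.35, edgeR adjusted p of 0.0752 to 0.135). Its log2 fold change was -0.15 with technical repeat 1 alone (edgeR adjusted p = 0.704) and -0.63 with repeat 2 alone (edgeR adjusted p = 0.0195).

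The other mitotic genes that rose encode proteins of chromosomes and kinetochores. *Mki67* (chromosome 7, 135689784 to 135716361), the proliferation antigen Ki-67 that coats mitotic chromosomes, held 1188, 1073 and 1034 CPM in HET mice and 778, 770.3 and 575 CPM in WT mice. *Top2a* (chromosome 11, 98992943 to 99024189), the topoisomerase that untangles sister chromosomes, held 1087, 986 and 972 CPM against 756, 698 and 642 CPM. *Cenpe* (chromosome 3, 135212537 to 135273611), a kinesin of the kinetochore, held 283, 265.5 and 255 CPM against 189, 183 and 153 CPM. For all 3 genes the lowest HET mouse lay far above the highest WT mouse, and the log2 fold changes were 0.63, 0.54 and 0.61 (SE 0.10, 0.09 and 0.10, edgeR adjusted p of 0.000194, 0.000209 and 0.000210). *Top2a* and *Cenpe* were called in all 20 alternatives and *Mki67* in 19, the exception being log2(TPM + 0.1) (log2 fold change 0.52, limma adjusted p = 0.0505).

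*Cenpf* (chromosome 1, 189640606 to 189688086), another large protein of the outer kinetochore, held 195.5, 188 and 189 CPM in HET mice and 174, 148 and 115 CPM in WT mice (log2 fold change 0.39, SE 0.12, edgeR adjusted p = 0.0249). The HET mice were nearly alike and the WT mice widely spread, and the call was lost without any one of HET mouse 1, HET mouse 2, HET mouse 3, WT mouse 2 or WT mouse 3 (log2 fold changes 0.24 to 0.40, edgeR adjusted p of 0.0537 to 0.193). The other 4 genes of the group did not pass the test. *Birc5*, the survivin subunit of the chromosomal passenger complex, the spindle motors *Kif11* and *Kif20a* and the spindle assembly factor *Tpx2* differed by -0.11 to 0.03 on the log2 scale. *Birc5* held 463 to 569.6 CPM in HET mice and 514 to 534 CPM in WT mice.

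Of the inhibitors of cyclin-dependent kinases, which hold cells in G1, 2 fell. *Cdkn1b* (p27, chromosome 6, 134920401 to 134925513), which restrains CDK2 in resting T cells, held 19, 17.1 and 14.6 CPM in HET mice and 27.7, 33.9 and 24.25 CPM in WT mice, without overlap (log2 fold change -0.75, SE 0.19, edgeR adjusted p = 0.00746). *Cdkn2c* (p18, chromosome 4, 109660876 to 109667189), which binds CDK4 and CDK6, held 79.5, 84.65 and 93.35 CPM against 116, 99.9 and 110.5 CPM (log2 fold change -0.34, SE 0.11, edgeR adjusted p = 0.0339). Both were thus lower in HET mice, *Cdkn1b* by the larger margin. Leaving out WT mouse 2 gave *Cdkn1b* a log2 fold change of -0.62 (edgeR adjusted p = 0.0555), technical repeat 2 alone -0.44 (edgeR adjusted p = 0.313) and repeat 1 alone -1.07 (edgeR adjusted p = 0.0131). *Cdkn2c* lost its call without HET mouse 1, HET mouse 2, WT mouse 1 or WT mouse 3 (log2 fold changes -0.34 to -0.29, edgeR adjusted p of 0.0878 to 0.128).

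*Cdkn1a* (p21), the inhibitor induced by p53 and other stress signals, was the lowest of the 50 genes per kilobase of exon (0.989 CPM per kb in HET and 0.247 in WT mice). It had 4.0, 1.40 and 5.14 CPM in HET mice and 1.74, 0.889 and 0 CPM in WT mice, which overlapped. The 6 HET libraries held 6, 49, 1, 15, 26 and 24 counts and the 6 WT libraries 2, 17, 10, 0, 0 and 0. The fitted log2 fold change of 2.02 (SE 0.76, edgeR adjusted p = 0.0704) therefore rests on few reads, and it did not pass the test. With 1 mouse left out it ranged from 1.40 (without WT mouse 3, edgeR adjusted p = 0.191) to 3.00 (without WT mouse 1, edgeR adjusted p = 0.0336), and without HET mouse 2 it was 2.40 (edgeR adjusted p = 0.0476).

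Summing each phase within a mouse showed how the 2 sets balanced. The 19 S-phase genes summed to 5051, 5321 and 5392 CPM in HET mice and to 5501, 5765 and 6343 CPM in WT mice. The 18 G2/M genes summed to 6184, 6154 and 6240 CPM in HET mice and to 5751, 5258 and 4971 CPM in WT mice. Neither sum overlapped between the labels, and the HET mice were alike in G2/M while the WT mice spread, with WT mouse 3 at the far end of both sums. The ratio of S-phase to G2/M transcripts was 0.817, 0.865 and 0.864 in HET mice and 0.957, 1.1 and 1.28 in WT mice, a difference of -0.38 on the log2 scale (-0.27 without WT mouse 3).

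This ratio leaned on the most abundant genes. *Mki67* and *Top2a* together held 2274, 2059 and 2006 CPM in HET mice and 1534, 1468 and 1217 CPM in WT mice. Without them the G2/M sum was 3910, 4095 and 4234 CPM in HET mice and 4217, 3790 and 3754 CPM in WT mice, so that the labels overlapped. The ratio was then 1.29, 1.30 and 1.27 in HET mice and 1.30, 1.52 and 1.69 in WT mice, a log2 difference of -0.22, and WT mouse 1 then lay at the upper edge of the HET mice. With every gene weighted equally, as the mean of log2(CPM + 1) over each set, the difference was -0.17. These sums and ratios describe the mice and were not tested, since the genes were chosen with results of these data known.

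**Figure D3:**
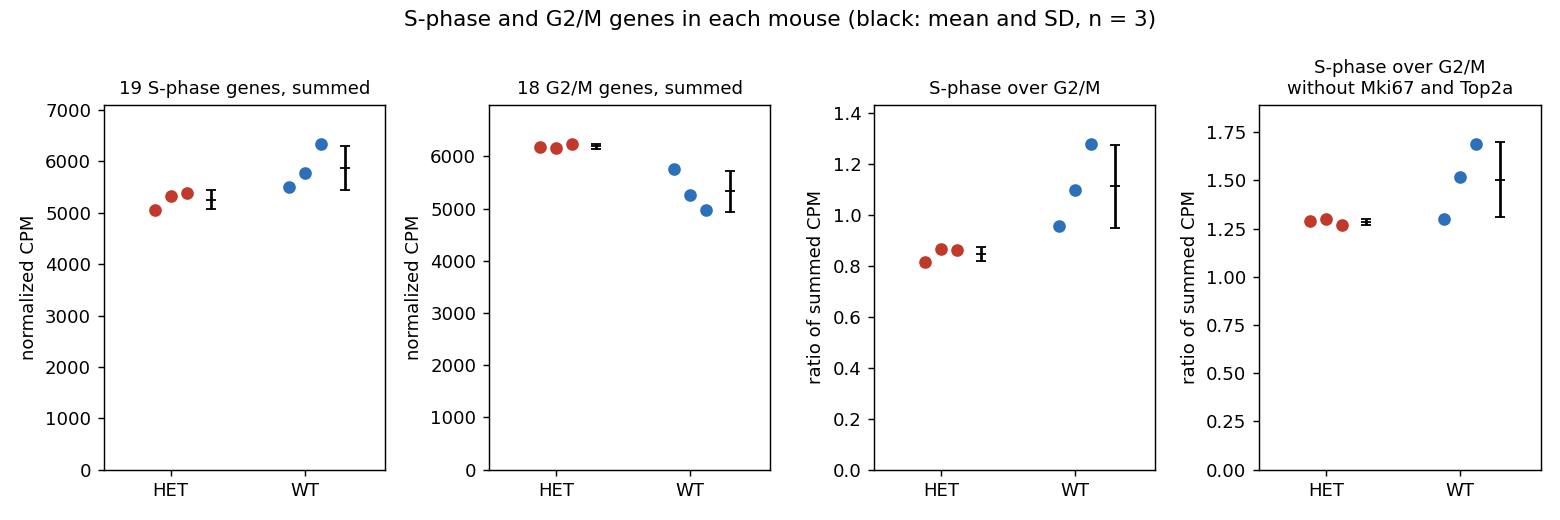
Summed normalized CPM of the 19 S-phase and 18 G2/M genes and their ratio, with and without *Mki67* and *Top2a* (vertical axes, from 0), for each HET (red) and WT (blue) mouse, with the mean and SD of 3 mice in black. The ratio is 0.817 to 0.865 in HET mice and 0.957 to 1.28 in WT mice, and without the 2 genes WT mouse 1 (1.30) falls level with the HET mice (1.27 to 1.30).

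The genes that rose differed from those that fell in length. The summed exon length had a median of 9.56 kb for the 6 genes that rose and 4.39 kb for the 10 that fell, with 3.87 kb over all tested genes, and the GC content 45.0%, 48.0% and 49.4%. When trends of expression with GC content and exon length were removed from each mouse, 14 of the 16 genes kept their call. *Cenpf* (15.4 kb) moved from 0.39 to 0.23 (edgeR adjusted p = 0.180) and *Cdkn2c* from -0.34 to -0.19 (edgeR adjusted p = 0.261). The short *Ube2c* (2.60 kb) moved from 0.49 to 0.61 and the long *Rrm1* (11 kb) from -0.36 to -0.49, while *Pole* stood at 0.84, *Mki67* at 0.56, *Cenpe* at 0.51, *Top2a* at 0.44, *Fen1* at -0.53 and *Mcm5* at -0.39.

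**Figure D4:**
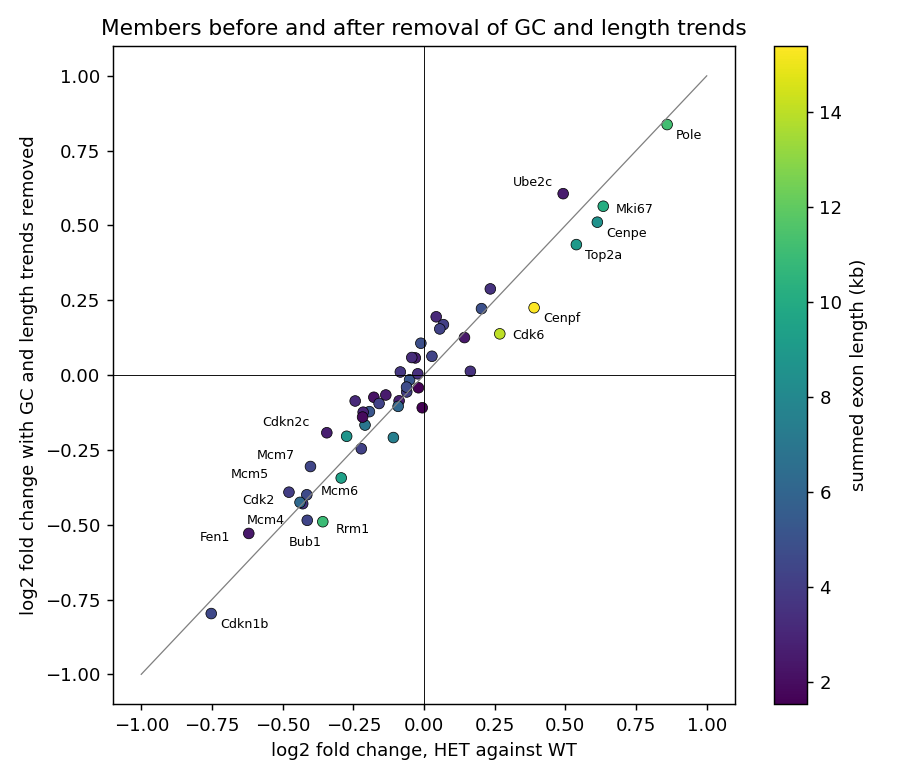
Log2 fold change of the members as measured (horizontal axis) and after removal of GC and length trends (vertical axis), coloured by summed exon length in kb, with the line of equality in grey. *Cdkn1a*, at 2.02 and 2.13, is off the scale. *Cenpf* and *Cdk6*, the longest genes, sit below the line, and *Pole*, *Mki67*, *Cenpe*, *Top2a* and *Fen1* stay far from 0.

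Other genes of the same pathways, listed from general knowledge, put the 50 in context. Of 184 such genes 179 were tested, and 18 rose and 14 fell, 17.9% in all, the same as the 18% of all genes, with a median log2 fold change of 0.06. Of 26 other genes of polymerases, clamp loader and single-strand binding, 5 fell (19.2%, against 8.82% of all genes) and 1 rose. *Rpa1*, which coats single-stranded DNA, had a log2 fold change of -0.64 (edgeR adjusted p = 0.000347), *Pold2*, a subunit of the lagging-strand polymerase, -0.64 (edgeR adjusted p = 0.000838), and the clamp loader subunit *Rfc1* 0.32 (edgeR adjusted p = 0.0378). Of 17 regulators around E2F and RB, 2 fell (11.8%, near the share of all genes), *Tfdp1*, the dimer partner of E2F (-0.47, edgeR adjusted p = 0.00186), and *Mybl2*, an activator of mitotic genes (-0.63, edgeR adjusted p = 0.00206). Of 19 other genes of origin licensing and firing, 2 rose (10.5%, near the 9.17% of all genes), *Gmnn*, the inhibitor of CDT1 (0.38, edgeR adjusted p = 0.00613), and *Wdhd1* (0.39, edgeR adjusted p = 0.0313).

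Of the mitotic lists, that of cohesin, condensin and the APC/C held more genes that rose than the 9.17% of all genes, with 5 of 21 (23.8%) and 0 that fell, led by *Rad21*, a cohesin subunit (0.54, edgeR adjusted p = 0.00359), and *Ncapd3*, a condensin subunit (0.45, edgeR adjusted p = 0.00593). In the other mitotic lists the share that rose was near or below that of all genes. Of 26 spindle motors and cytokinesis genes, 3 rose (11.5%) and 0 fell, among them *Kif20b* (0.59, edgeR adjusted p = 0.00280) and *Hmmr* (0.44, edgeR adjusted p = 0.00410). Of 22 kinetochore genes, 2 rose (9.09%), among them *Knl1*, a scaffold of the outer kinetochore (0.40, edgeR adjusted p = 0.0190), and 1 fell, *Dsn1* (-0.40, edgeR adjusted p = 0.0416). Of 18 other kinases and phosphatases, 1 rose (5.56%) and 1 fell. *Cks2*, the small partner of CDK1, rose from 259.5, 241.5 and 221 CPM in WT mice to 386, 385 and 406 CPM in HET mice (0.71, edgeR adjusted p = 2.0e-05), and *Nek2* fell (-0.44, edgeR adjusted p = 0.00952).

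The remaining lists were mixed. Of 13 other genes of nucleotide supply, 3 rose (23.1%, against 9.17% of all genes) and 3 fell (23.1%, against 8.82%). Of those that rose, the smallest p belonged to *Cad*, which starts pyrimidine synthesis (0.68, edgeR adjusted p = 0.00491), and *Dut*, which clears dUTP (0.37, edgeR adjusted p = 0.00508). Of those that fell, it belonged to *Dck*, a salvage kinase (-0.52, edgeR adjusted p = 0.00125), and *Impdh2*, of guanine nucleotide synthesis (-0.37, edgeR adjusted p = 0.0246). Of 5 other listed inhibitors of cyclin-dependent kinases, 2 were tested and *Cdkn3* rose (0.39, edgeR adjusted p = 0.0235). Of a list of 15 tested genes made up of p53's own gene and its targets, 2 fell (13.3%, against 8.82% of all genes) and 0 rose, with a median of -0.31. The 2 that fell were the gene of p53 and 1 target. *Trp53*, which encodes p53, held 179, 175 and 166 CPM in HET mice and 232, 232 and 227 CPM in WT mice (-0.41, edgeR adjusted p = 0.00348), and *Sesn2*, a stress-induced sestrin, 1.09, 2.01 and 2.16 CPM against 8.52, 9.33 and 5.56 CPM (-2.16, edgeR adjusted p = 0.000626). The mice of the labels did not overlap for either gene.

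**Figure D5:**
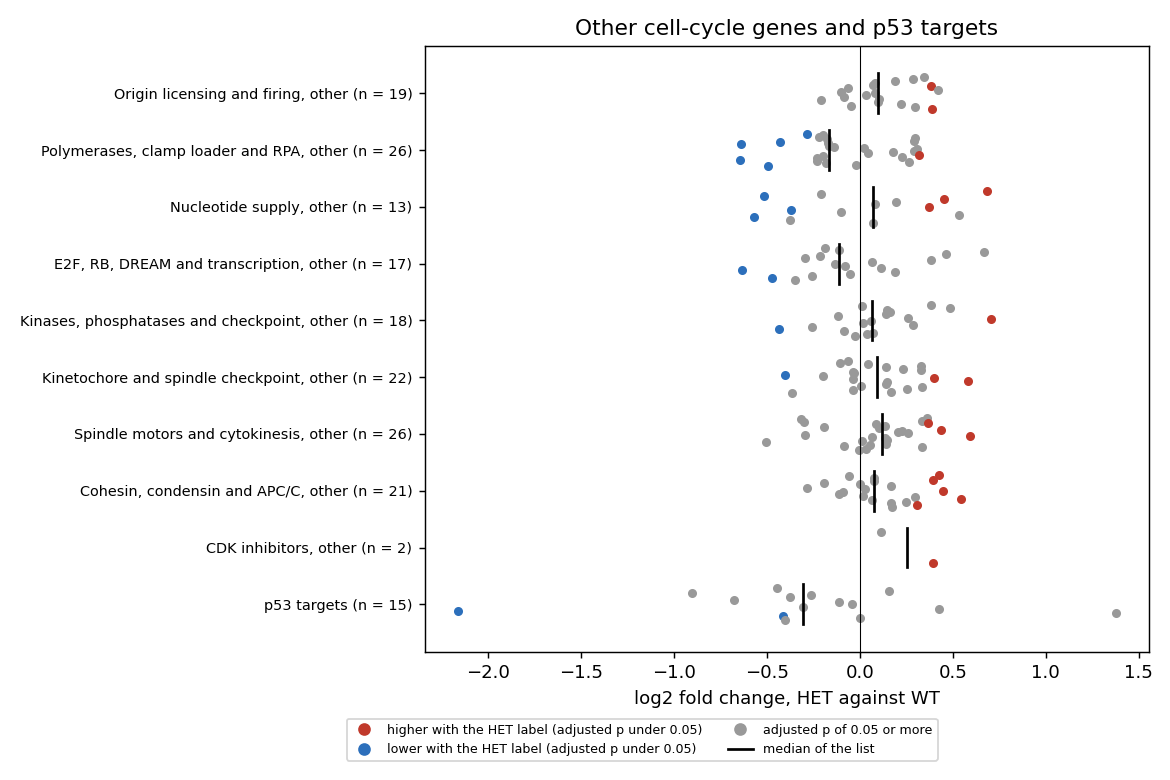
Log2 fold change (horizontal axis) of each tested gene of the other cell-cycle lists and of p53 and its targets, with the median of each list as a black bar, red for genes that rose and blue for genes that fell with the HET label at an edgeR adjusted p under 0.05. The list of polymerases, clamp loader and RPA holds 5 of the 14 blue points and that of cohesin, condensin and APC/C 5 of the 18 red points, and the list of p53 and its targets has the lowest median (-0.31).

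Between the 2 technical repeats of a mouse, the 50 genes differed by a median of 0.142 on the log2 scale (0.122 to 0.201 by mouse), which measures technical spread alone, whereas the tests rest on the spread between mice. Of the 50 genes, 21 have an exon that overlaps an exon of another gene, 20 of them on the opposite strand, among them *Fen1*, *Mcm7*, *Cdk2*, *Ube2c* and *Pole*, and the strand setting of the counting is not given in the sources used here.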

How the data were processed

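Messenger RNA of CXCR5hiPD-1hi OT-II Tfh cells was sequenced by SMART-Seq2 in 12 libraries. The authors aligned reads with HISAT2 2.2.1 to GRCm38 (mm10), used HTSeq-count to assign them to genes, and deposited raw counts for 24561 genes. They also deposited TPM values for 24530 genes, used here only as an alternative. Annotation release and strand setting are not given in the sources used here. Genes were matched to GENCODE M21 on GRCm38 (23822 by name, 212 by another symbol, 527 not found) for position, exon length and GC content.

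Technical repeats were summed per mouse. Mice of the 2 labels were compared in R 4.3.3 by edgeR 4.0.16 (TMM, filterByExpr, quasi-likelihood test, Benjamini-Hochberg adjustment over 12719 genes, threshold 0.05). CPM were normalized with TMM factors. The standard error was the log2 fold change divided by the square root of F. With 3 mice against 3, a two-sided exact permutation test cannot go below 0.1, so single values such as the ratio of phases were not tested.

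The 50 genes, the wider lists and the markers were chosen with earlier results of these data known. Full values were given for every called member and for *Mki67*, *Top2a*, *Cdk1*, *Ccnb1*, *Mcm2*, *Pcna*, *Ccnd2*, *Ccnd3*, *Cdk4*, *Cdk6*, *Cdkn1a*, *Cdkn1b* and *Cdkn2c*, and for up to 2 called genes of smallest p per direction in each wider list. A called gene of the wider lists is not reported here. The 20 alternatives were DESeq2 1.42.0, all 12 libraries taken as separate samples, only one of the technical repeats, RLE and upper-quartile scaling, other filters on low counts, limma 3.58.1 on log2(TPM + 1) and log2(TPM + 0.1), a block for the replicate number, trends with GC and length fitted in each mouse with mgcv 1.9.3 and taken out (also with the block), each mouse left out, and, added after the data were seen, 2 WT libraries left out. The edgeR, DESeq2, block and trend fits were tried on simulated counts. For limma the simulated counts were scaled to library size and logged, so its fits on TPM were not themselves tested. No column was left unmapped. Reads carry no molecular identifiers, so libraries differ by more than counting error alone.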

Additional observations from a re-analysis of the deposited data

Results flagged for a closer look

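Over the 6 libraries of each label, the normalized CPM of the named genes and the phase sums were checked for a library far from the others. Of 54 groups of 6 libraries, 1 held such a library, where chance gives about 2.7. The summed CPM of the S-phase genes was 5879 in HET mouse 3 repeat 1, and 5023 to 5339 in the other HET libraries (median 5075). This library was also the shallowest, with 3343375 counts. The part of its depth in this value was not tested.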

How the results depend on the processing

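The cause was not tested where a value moved. The count of all genes called fell from 2288 to 1059 with technical repeat 1 alone, 1446 with repeat 2 alone, 1305 with log2(TPM + 1), 1260 with log2(TPM + 0.1) and 1233 without WT mouse 2 repeat 1 and WT mouse 3 repeat 2, and ranged from 1424 (without WT mouse 3) to 1972 when 1 mouse was left out. Members called were 8 with repeat 1 alone (49 tested) and 10 with log2(TPM + 0.1), against 16, and 12 to 16 without 1 mouse. The split of all genes into 1166 higher and 1122 lower became 1331 and 957 with upper-quartile scaling, 390 and 915 with log2(TPM + 1), and 374 and 886 with log2(TPM + 0.1), which moved the median of all genes to -0.11. The S-phase median (-0.09) was -0.19 with repeat 2 alone, -0.20 with either TPM fit and -0.19 without the 2 WT libraries, and -0.16 to -0.02 without 1 mouse. The G2/M median (-0.04) was -0.11 with repeat 1 alone, -0.16 and -0.17 with log2(TPM + 1) and log2(TPM + 0.1), -0.10 without the 2 WT libraries, and -0.078 (without WT mouse 3) to 0.016 (without HET mouse 1) when 1 mouse was left out. The S to G2/M difference (-0.38) was -0.17 as a mean of logs, -0.22 without *Mki67* and *Top2a*, and -0.48 to -0.27 without 1 mouse. *Cdk4* changed sign to 0.015 with repeat 1 alone, to 0.0587 with GC and length trends removed and to 0.0586 with the block as well, and *Cdk6* to -0.0024 with repeat 2 alone. DESeq2 called 2558 genes and 17 members. With the replicate number as a block, 2579 genes and 18 members were called, the 16 plus *Ccnd3* and *Cdk6*. Deviations of same-numbered mice had correlations of 0.0852, -0.0283 and 0.0247, and those of the other pairs -0.0834 to 0.0596. With 3 mice per label these values cannot settle whether the numbers pair the mice. Of the values of the genes named by rule, 428 kept direction and side of the threshold, 48 lost it, 18 gained it and 4 changed sign. Among the other members, those near 0 changed sign more often, and *E2f2* kept its sign in 13 and *Ccne1* in 14 of the 20 alternatives. About 200 cells per library and 3 mice per label limit the precision, most for *Cdkn1a* and *Cdkn1b*.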
